A study of Mus musculus with 8 samples.

Results

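Wnt and planar cell polarity signalling was followed through 52 genes chosen by name and function, which were all present among the 31053 gene identifiers of the files. They comprised 17 genes of the canonical branch, 11 genes of the polarity branch and 24 genes that both branches use (secretion factors, ligands, Frizzled receptors, Dishevelled proteins and secreted inhibitors). RNA came from RPE isolated at postnatal day 29 (P29) from wild type (*Bbs8*+/+) mice and from *Bbs8* knockout (*Bbs8*-/-) littermates of the strain labelled C57/Bl6, with 4 libraries per genotype. The mice received no treatment, their sex was not determined, and replicates of a genotype were separate animals. The labels name neither a Cre driver nor a transgene, so the genotype is that of the whole animal, and retina, choroid and RPE of a *Bbs8*-/- mouse carry the same alleles.

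Wnt proteins are lipid-modified by *Porcn*, escorted to the cell surface by *Wls* and bound by Frizzled receptors. In the canonical branch, a Frizzled with the co-receptors *Lrp5* or *Lrp6* stalls the complex of *Axin1*, *Apc*, *Gsk3b* and *Csnk1a1* that otherwise marks β-catenin for degradation, and β-catenin then acts with TCF/LEF factors on target genes. In the polarity branch, Frizzled, *Vangl*, *Celsr* and *Prickle* proteins take up opposite sides of neighbouring cells and orient the cytoskeleton and cilia across an epithelium. RPE specification and maturation depend on Wnt signalling, and BBS proteins have been tied to both branches through the cilium.

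The libraries were made with the QuantSeq 3′ protocol, which reads the end of each polyadenylated transcript, so that counts do not grow with transcript length. Levels are given as CPM, counts relative to the library's total on genes after scaling by edgeR's TMM factors. The total on genes ranged from 2389835 to 3093428 per library, and 3 counts, taken as the smallest signal, correspond to 1.02 to 1.23 CPM, a floor for counting error only. *Ttc8*, the annotation's name for *Bbs8*, had 105 to 144 counts per *Bbs8*+/+ library and 5 to 15 per *Bbs8*-/- library. All 18 genes of an RPE marker list passed the filter for testing described below. Their *Bbs8*+/+ means ran from *Best1* at 1.06 CPM to the transthyretin gene *Ttr* at 20932 CPM. *Best1* was at the floor, with 0 to 5 counts per library. Photoreceptor, lens and erythrocyte genes were present too and moved with genotype, as given beside the results they accompany. A gene was tested when it reached 1 CPM in at least 4 of the 8 libraries, by edgeR's quasi-likelihood test of genotype, with Benjamini-Hochberg adjustment over all 12889 tested genes.

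Of the 52 genes, 44 were tested, and 4 of these passed an adjusted p of 0.05. *Dkk3*, *Sfrp1* and *Daam1* were up-regulated and *Prickle1* was down-regulated in *Bbs8*-/- RPE. None of the 15 tested canonical genes passed, a group that leaves out *Dkk3*, which was counted as shared. The 4 calls are 9.09% of the tested Wnt and polarity genes, against 12.3% of all tested genes, 5.46% up-regulated and 6.8% down-regulated. The share among the Wnt and polarity genes was not above the background. DESeq2 and edgeR's likelihood ratio test called the same 4 genes. When only library size was used for scaling, without TMM, the split of 3 up-regulated and 1 down-regulated became 7 and 0, with *Wls*, *Fzd3*, *Fzd4* and *Bcl9l* added and *Prickle1* lost, and over all genes it became 1005 and 657 in place of 704 and 877. Whether or not they passed the test, 33 of the 44 genes had a higher estimate in *Bbs8*-/- RPE and their median log2 fold change was 0.31, beside 51.8% of all tested genes and a median of 0.02. Under library size alone these were 36 genes and 0.39, beside 59.6% and 0.11.

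**Figure D1:**
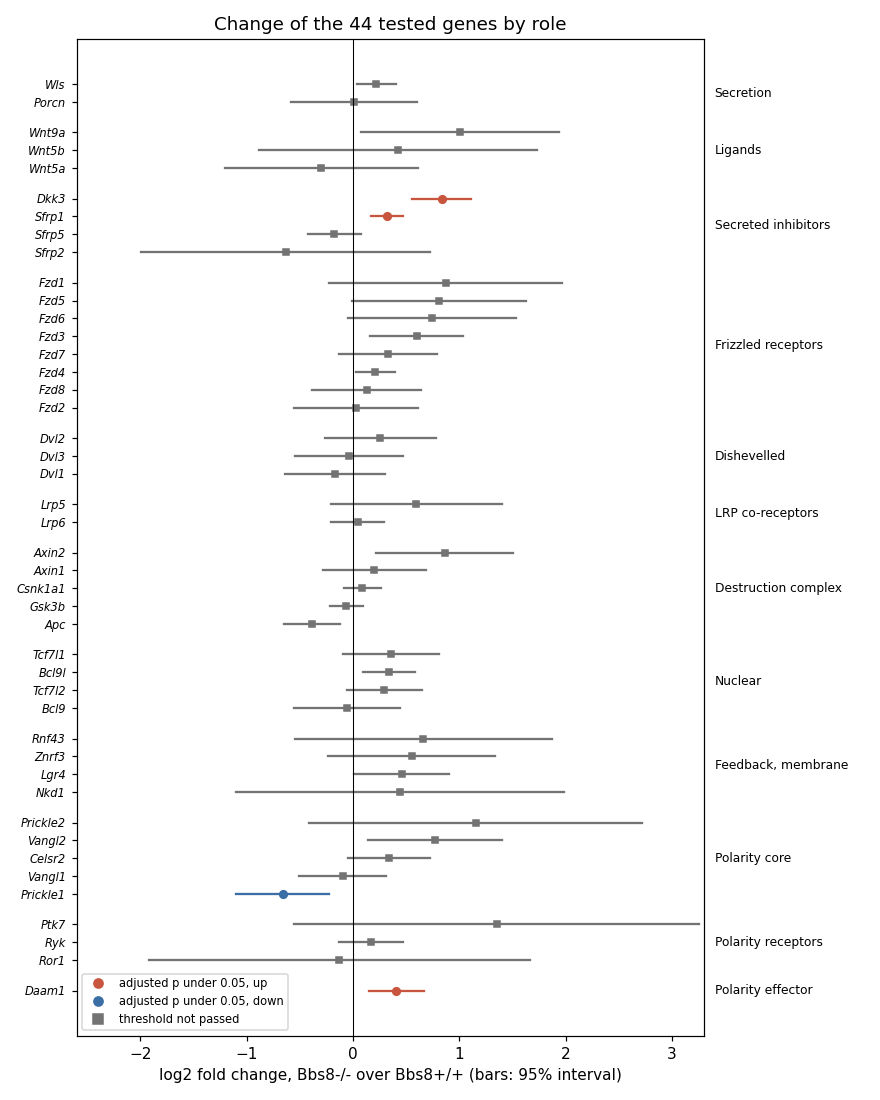
Log2 fold change of each of the 44 tested genes (x axis, *Bbs8*-/- over *Bbs8*+/+, n = 4 libraries per genotype) with its 95% interval (bar), grouped by role on the y axis. Red and blue circles are the 3 up-regulated genes and the 1 down-regulated gene, and grey squares did not pass the threshold. All 8 Frizzled genes have estimates above 0, most with intervals that cross 0.

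In *Bbs8*+/+ RPE the levels of the 52 genes ran from 0 to 513 CPM. Of these, 8 genes averaged 100 CPM or more, 20 lay between 10 and 100 CPM, 17 between 1 and 10 CPM and 7 under 1 CPM. The order at the top was *Gsk3b* (513 ± 25.3 CPM, SD, n = 4) and *Sfrp1* (459 ± 30.3 CPM), whose libraries overlapped, then *Csnk1a1* (283 ± 16.6 CPM) and *Fzd4* (282 ± 25.8 CPM), which also overlapped, and then *Wls* (216 ± 4.85 CPM) and *Sfrp5* (169 ± 9.06 CPM), each apart from its neighbours in this order. The most abundant genes thus included a kinase pair of the destruction complex, 2 secreted inhibitors, 1 receptor and the Wnt carrier, while the mean of every ligand was below 10 CPM. Of the genes that were not tested, *Wnt2b* had no count in any library, which allows up to 1.02 to 1.23 CPM per library. The others had at most 2 counts (*Wnt4*), 3 counts (*Ror2*), 5 counts (*Wnt7b*, *Wif1* and *Lef1*), 6 counts (*Tcf7*) and 10 counts (*Celsr1*) in any library. The 10 counts of *Celsr1* came from 1 *Bbs8*-/- library, and the other 3 had none. For these 8 genes a difference between genotypes was not detectable at this depth.

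**Figure D2:**
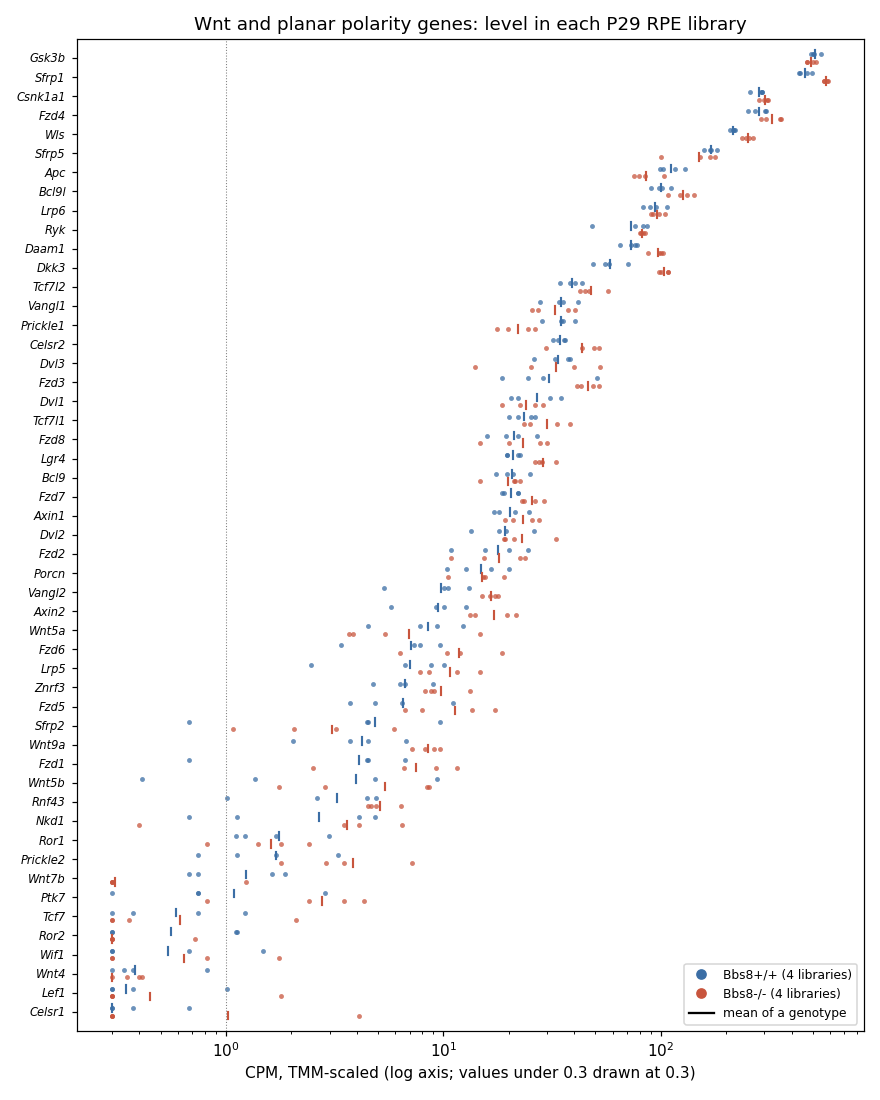
Level of the 51 genes with any count in each library (x axis, TMM-scaled CPM on a log axis, values under 0.3 drawn at 0.3), ordered on the y axis by the *Bbs8*+/+ mean. Points are libraries, 4 per genotype, and short vertical lines are genotype means. *Gsk3b* and *Sfrp1* lead, and the ligands and the genes under 1 CPM lie at the bottom.

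The precision followed the level. The half-width of the 95% interval of a log2 fold change was 0.15 to 0.25 for the 7 tested genes with 100 CPM or more on average over both genotypes, 0.25 to 0.64 for the 23 between 10 and 100 CPM, and 0.79 to 1.90 for the 14 below 10 CPM. For the latter, only large differences could have been called. Whether reads were counted by strand is not given in the sources used here. The annotation places a gene on the opposite strand over the 3′ end of *Dvl1* (*Tas1r3*), *Dvl2* (*Acadvl*), *Bcl9l* (*Cxcr5*), *Sfrp2* and *Ptk7*, whose counts are uncertain to that extent. None of the 4 called genes overlaps another gene with an identifier in the files, and annotated genes outside the files were not searched.

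The promoters of the polarity genes called here and of *Axin2*, the usual read-out of canonical signalling, are shown because these genes carry the comparison between branches. They are RefSeq promoters of GRCm38.p6, with 250 bases before and 50 after the start of the transcript, and capitals mark any CTTTGA on either strand, the core of the TCF/LEF binding motif.
*Axin2*, chr11:108920099-108920398, forward strand: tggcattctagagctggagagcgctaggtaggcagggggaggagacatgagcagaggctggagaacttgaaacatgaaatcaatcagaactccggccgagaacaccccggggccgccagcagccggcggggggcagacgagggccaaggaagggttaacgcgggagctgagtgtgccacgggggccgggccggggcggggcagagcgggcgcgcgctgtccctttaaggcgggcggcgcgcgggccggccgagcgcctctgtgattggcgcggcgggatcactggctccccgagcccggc
*Daam1*, chr12:71830818-71831117, forward strand: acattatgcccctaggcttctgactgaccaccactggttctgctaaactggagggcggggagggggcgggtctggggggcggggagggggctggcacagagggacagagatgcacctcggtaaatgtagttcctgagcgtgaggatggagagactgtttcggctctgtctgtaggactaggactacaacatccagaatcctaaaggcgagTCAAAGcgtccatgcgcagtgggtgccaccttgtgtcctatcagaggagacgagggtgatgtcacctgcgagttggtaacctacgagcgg
*Prickle1*, chr15:93595853-93596152, reverse strand: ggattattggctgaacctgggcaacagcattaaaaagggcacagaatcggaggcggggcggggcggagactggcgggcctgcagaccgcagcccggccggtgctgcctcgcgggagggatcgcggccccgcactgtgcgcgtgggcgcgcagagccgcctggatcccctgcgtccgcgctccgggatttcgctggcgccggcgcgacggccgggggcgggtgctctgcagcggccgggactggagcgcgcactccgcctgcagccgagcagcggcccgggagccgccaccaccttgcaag
*Daam1* and *Prickle1* each have 2 listed promoters, of which 1 is shown. The *Daam1* window held 1 core and the other windows none. Sequence outside the listed promoters was not searched, so a gene without a core here may have one elsewhere. The longer motif CTTTGAT, searched on both strands, occurred in a listed promoter of 2 of the 34 genes with an entry (5.88%), *Prickle2* and *Wnt5b*, and in 4.29% of all 27025 genes with an entry. The share was close to that of all genes, and for the core alone it was 7 of 34 genes (20.6%) beside 18.2%. The 3 windows were rich in G and C, at 70.0% for *Axin2*, 58.0% for *Daam1* and 74.0% for *Prickle1*, where the median was 52.7% over all promoters and 66% over those of the Wnt and polarity genes. *Sfrp1* and *Dkk3* had no entry.

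Among secretion factors, *Wls*, the carrier of Wnt proteins, was at 209, 220, 215 and 218 CPM in *Bbs8*+/+ libraries and at 237, 245, 255 and 266 CPM in *Bbs8*-/- libraries. The genotypes did not overlap, as was so for 16.0% of all tested genes, and the log2 fold change of 0.22 (standard error, SE, 0.0930) did not pass the threshold (adjusted p = 0.133, edgeR). With library size alone it was 0.31 (adjusted p = 0.0220). *Porcn*, the acyltransferase of Wnt proteins, stood at 14.9 ± 4.26 CPM and 15.1 ± 3.498 CPM (SD, n = 4), and its interval ran from −0.59 to 0.60 on the log2 scale.

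Ligands were scarce in RPE of both genotypes. The 6 ligand genes together amounted to 11.9 to 27.6 CPM per *Bbs8*+/+ library and 15.0 to 33.2 CPM per *Bbs8*-/- library. *Wnt5a*, a ligand mostly associated with the polarity branch, was the most abundant in *Bbs8*+/+ RPE, with 7.79, 9.32, 4.50 and 12.3 CPM in *Bbs8*+/+ and 3.70, 5.37, 14.8 and 3.84 CPM in *Bbs8*-/- libraries. These overlapped (log2 fold change −0.30, 95% interval −1.20 to 0.61). *Wnt9a* was at 2.03, 6.71, 4.50 and 3.72 CPM against 8.21, 7.17, 9.60 and 9.09 CPM. Its libraries did not overlap and its log2 fold change was 1.00 (SE 0.475), which did not pass after adjustment (adjusted p = 0.188, edgeR). *Wnt5b* varied from 0.409 to 9.32 CPM within *Bbs8*+/+ alone.

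Many secreted inhibitors bind Wnt proteins or their receptors outside the cell. The group as listed here held 2 of the 3 up-regulated genes. *Dkk3* was placed in it as a Dickkopf family gene, and whether it inhibits Wnt signalling was not tested. It was counted as shared, whereas *Dkk1*, *Dkk2* and *Dkk4* stand on the canonical side of the list of other pathway genes. *Dkk3* (ENSMUSG00000030772, chromosome 7 of GRCm38, 112116017 to 112159057, reverse strand), a secreted glycoprotein of the Dickkopf family that Müller glia express in the retina, was at 48.7, 55.6, 57.6 and 70.6 CPM in *Bbs8*+/+ libraries and at 108, 98.5, 100.4 and 108 CPM in *Bbs8*-/- libraries. Every *Bbs8*-/- library lay above every *Bbs8*+/+ library. The mean rose from 58.1 ± 9.14 to 104 ± 4.85 CPM (SD, n = 4), 1.78-fold (log2 fold change 0.83, SE 0.141, adjusted p = 2.98e-05, edgeR). With any 1 library left out, the log2 fold change stayed between 0.76 and 0.94 and was called each time.

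*Sfrp1* (ENSMUSG00000031548, chromosome 8 of GRCm38, 23411502 to 23449632, forward strand), a secreted Frizzled-related protein that binds Wnt through a Frizzled-like domain, had 433, 498, 437 and 469 CPM in *Bbs8*+/+ and 562, 586, 582 and 563 CPM in *Bbs8*-/- libraries. The genotypes were again apart, by less than for *Dkk3*. The mean rose 1.25-fold, from 459 ± 30.3 to 573 ± 12.7 CPM (SD, n = 4) (log2 fold change 0.32, SE 0.0784, adjusted p = 0.00396, edgeR), and the call held with each of the 8 libraries left out in turn (0.29 to 0.36). *Sfrp5*, its paralog, was at 158, 181, 170 and 168 CPM in *Bbs8*+/+ libraries and at 101, 169, 178 and 151 CPM in *Bbs8*-/- libraries. The *Bbs8*-/- library 1 was far below the others, and the log2 fold change of −0.18 (95% interval −0.42 to 0.07, adjusted p = 0.443, edgeR) became −0.03 without it. *Sfrp2* was near the floor at 0.677 to 9.70 CPM.

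The make-up of this group can be read from shares of counts. *Sfrp1* supplied 65.3% to 67.5% of the counts on the 5 inhibitor genes in *Bbs8*+/+ libraries and 67.3% to 72.7% in *Bbs8*-/- libraries. *Dkk3* supplied 7.47% to 9.90% and 11.5% to 13.9%, and *Sfrp5* 23.6% to 25.4% and 13.02% to 20.7%. These shares depend on each other and on the *Bbs8*-/- library 1, which gave the lowest value of *Sfrp5*. The ratio of *Sfrp1* to *Sfrp5* counts was 2.57 to 2.78 in *Bbs8*+/+ and 3.26 to 5.58 in *Bbs8*-/- libraries.

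Genes listed as markers of other cells moved with genotype beside *Dkk3* and *Sfrp1*. Of 12 genes listed for Müller glia, *Dkk3* among them, 4 were up-regulated and 0 down-regulated, and the summed list took 0.831% to 0.885% of gene counts in *Bbs8*+/+ and 1.02% to 1.10% in *Bbs8*-/- libraries (exact permutation test, two-sided, p = 0.0286, which 4 against 4 libraries cannot go below). The sum lay mostly in *Apoe* (means of 4110 CPM in *Bbs8*+/+ and 4856 CPM in *Bbs8*-/-), *Rlbp1* (1839 and 1889 CPM), *Glul* (1199 and 1709 CPM) and *Car14*. All 12 had counts in *Bbs8*+/+ RPE, where *Rlbp1* and *Apoe* of this list are also expressed by the RPE itself. For the others of the 12, the cells of origin were not tested. Of the 8 that did not pass, *Aqp4* and *Kcnj10*, which define these glia, had means of 1.52 and 0.951 CPM in *Bbs8*+/+ and 5.85 and 2.90 CPM in *Bbs8*-/- RPE, with overlapping libraries (adjusted p = 0.102 and 0.376, edgeR). *Vim* and *Car14* had means of 114 and 1056 CPM in *Bbs8*+/+ and 100.5 and 1020 CPM in *Bbs8*-/- RPE. Of 11 genes listed for reactive glia, 10 were up-regulated, from 0.0330% to 0.0493% of counts in *Bbs8*+/+ to 0.276% to 0.291% in *Bbs8*-/- libraries (same test, exact p = 0.0286). Much of the sum lay in *A2m* (means of 109 CPM in *Bbs8*+/+ and 1251 CPM in *Bbs8*-/-), *Serpina3n* (7.06 and 423 CPM) and *Stat3* (146 and 369 CPM). *Gfap*, also up-regulated, was low at 1.07 and 5.77 CPM. Which cells these counts came from was not tested. The part of these cells in the levels of *Dkk3* and *Sfrp1* was not tested. In bulk RNA, more cells of a type and more RNA per cell cannot be told apart.

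**Figure D3:**
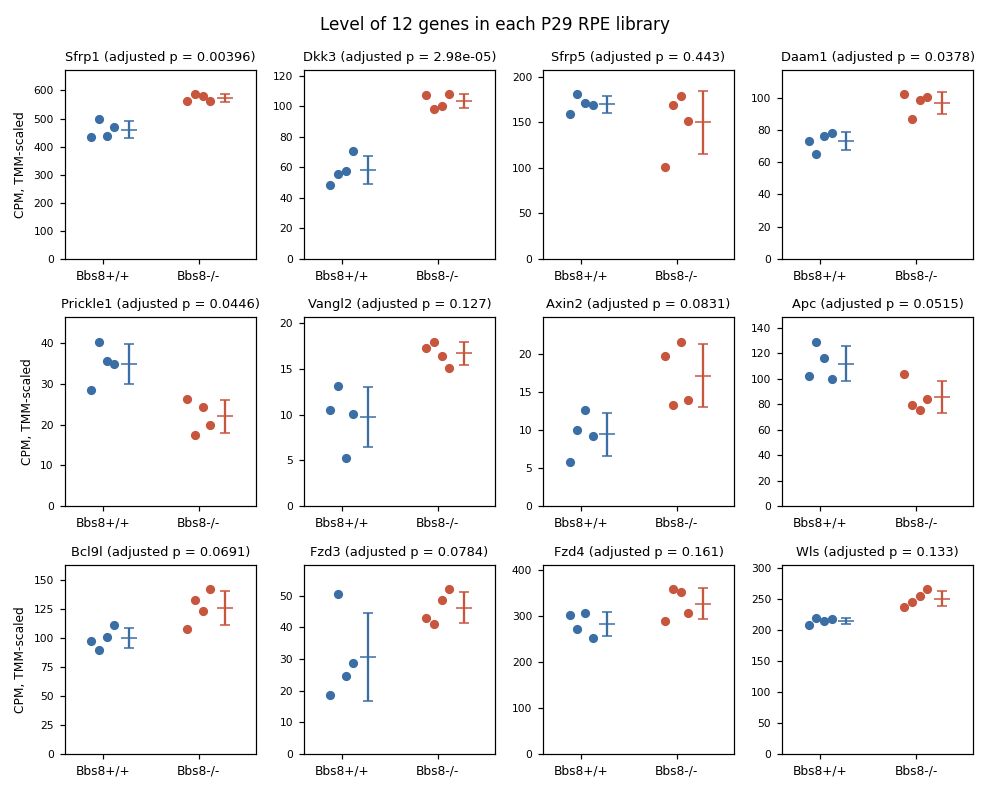
Level of 12 genes in each library (y axes, TMM-scaled CPM from 0), with the 4 *Bbs8*+/+ libraries in blue and the 4 *Bbs8*-/- libraries in red. The bar beside each set is the mean ± SD, and the adjusted p of edgeR's quasi-likelihood test is above each panel. The called genes *Dkk3*, *Sfrp1*, *Daam1* and *Prickle1* show no overlap between genotypes, and neither do *Wls*, *Axin2* and *Vangl2*, which were not called. The same was so for 16.0% of all tested genes. *Fzd3* has 1 *Bbs8*+/+ library at 50.7 CPM among the *Bbs8*-/- values.

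Frizzled receptors were led by *Fzd4*, which supplied 69.1% to 76.9% of the counts on the 8 Frizzled genes in *Bbs8*+/+ libraries and 64.9% to 72.4% in *Bbs8*-/- libraries. None of the 8 passed the threshold with edgeR, DESeq2 or the likelihood ratio test, and 2 had an unadjusted p under 0.05, as did 23.4% of all tested genes. *Fzd4* had 301, 271, 305 and 251 CPM in *Bbs8*+/+ and 289, 357, 352 and 306 CPM in *Bbs8*-/- libraries. The sets overlapped (log2 fold change 0.21, standard error 0.0946, adjusted p = 0.161, edgeR), and the gene was called with library size alone (0.30, adjusted p = 0.0293). *Fzd3*, which acts mainly in neuronal and polarity settings, had 18.6, 50.7, 24.5 and 28.6 CPM against 43.1, 41.2, 48.8 and 52.1 CPM. The *Bbs8*+/+ library 2 lay among the *Bbs8*-/- values, and the log2 fold change of 0.60 (adjusted p = 0.0784, edgeR) was 0.96 without it (adjusted p = 0.00337). Of the fits with 1 library left out, only that 1 called *Fzd3*, and the adjusted p reached 0.240 in the others. All 8 estimates were above 0, from 0.03 for *Fzd2* to 0.87 for *Fzd1*, under TMM and under library size alone, and with 1 library left out 7 or 8 of them were. The 3 Dishevelled genes, which relay both branches, had estimates from −0.17 to 0.26 and none passed. *Dvl3* had 37.6, 38.0, 26.2 and 32.7 CPM in *Bbs8*+/+ and 39.8, 52.3, 25.2 and 13.98 CPM in *Bbs8*-/- libraries. The *Bbs8*-/- set ran from below to above all *Bbs8*+/+ values, and the log2 fold change of −0.04 changed sign with library size alone.

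In the canonical branch, 0 of 15 tested genes were up- or down-regulated by edgeR's quasi-likelihood test, and likewise by DESeq2 and by the likelihood ratio test. At an unadjusted p under 0.05, 2 were higher (*Axin2* and *Bcl9l*) and 1 lower (*Apc*) in *Bbs8*-/- RPE, where 23.4% of all tested genes had such a p. The median log2 fold change was 0.34, beside 0.02 over all tested genes, and 12 of the 15 estimates were above 0, beside 51.8%. With library size alone 14 estimates were above 0, beside 59.6% of all tested genes. The co-receptor *Lrp6* stood at 93.7 ± 9.80 and 96.4 ± 6.76 CPM (SD, n = 4), and its log2 fold change was 0.04 with a 95% interval from −0.21 to 0.30.

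Within the destruction complex, *Gsk3b*, the kinase that phosphorylates β-catenin, was at 513 ± 25.3 CPM in *Bbs8*+/+ and 491 ± 25.0 CPM in *Bbs8*-/- RPE (SD, n = 4). Its interval of −0.22 to 0.09 on the log2 scale was among the narrowest of the 44. *Csnk1a1*, the priming kinase, was at 283 ± 16.6 and 301 ± 12.8 CPM (log2 fold change 0.09). *Apc*, the scaffold of the complex, had 102, 129, 117 and 99.6 CPM in *Bbs8*+/+ and 103, 79.2, 75.2 and 84.2 CPM in *Bbs8*-/- libraries. The *Bbs8*-/- library 1 lay within the *Bbs8*+/+ values and the other 3 below them. The log2 fold change of −0.39 (SE 0.134) had an adjusted p of 0.0515 (edgeR), just outside the threshold. With each library left out in turn, *Apc* passed in 2 of 8 fits, at 0.0169 without *Bbs8*-/- library 1 and 0.0250 without *Bbs8*+/+ library 1. The highest adjusted p of these fits was 0.211.

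*Axin2* (ENSMUSG00000000142), a scaffold of the same complex that canonical signalling itself induces, is the member most often read as the pathway's output. It had 5.75, 10.1, 12.7 and 9.29 CPM in *Bbs8*+/+ libraries and 19.7, 13.3, 21.6 and 13.98 CPM in *Bbs8*-/- libraries. These correspond to 17 to 31 counts and 37 to 54 counts. Every *Bbs8*-/- library was above every *Bbs8*+/+ library, and the mean went from 9.45 ± 2.85 to 17.1 ± 4.15 CPM (SD, n = 4). The log2 fold change was 0.86 with a 95% interval of 0.22 to 1.501, and its adjusted p of 0.0831 (edgeR) did not pass. With 1 library left out it lay between 0.68 and 1.03, and the adjusted p between 0.0660 and 0.229. The other feedback genes, which limit receptors at the membrane or Dishevelled, were low. *Rnf43*, *Znrf3* and *Nkd1* had estimates of 0.66, 0.55 and 0.44 at means under 10 CPM, and none passed. *Lgr4*, a receptor for R-spondins, had 19.6, 22.0, 22.5 and 19.7 CPM in *Bbs8*+/+ and 32.8, 27.6, 26.4 and 28.3 CPM in *Bbs8*-/- libraries. Its sets did not overlap, and the log2 fold change of 0.46 did not pass (adjusted p = 0.217, edgeR).

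Of the nuclear factors, *Lef1* and *Tcf7* were under the filter, so that *Tcf7l1* and *Tcf7l2* were the TCF genes measured, at 23.4 ± 2.97 and 39.1 ± 3.74 CPM in *Bbs8*+/+ RPE. Neither passed the threshold, with log2 fold changes of 0.36 and 0.29. *Bcl9l*, a co-activator that binds β-catenin, had 97.8, 89.9, 101 and 111 CPM in *Bbs8*+/+ and 108, 133, 123 and 142 CPM in *Bbs8*-/- libraries. The sets overlapped in 1 library each. Its log2 fold change of 0.34 did not pass (adjusted p = 0.0691, edgeR). With each library left out in turn, *Bcl9l* passed in 1 of 8 fits, without *Bbs8*-/- library 1 (0.41, adjusted p = 0.0303). The highest adjusted p of these fits was 0.212. The gene also passed with library size alone (0.43, adjusted p = 0.0163).

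In the polarity branch, 9 of 11 genes were tested, 1 was up-regulated and 1 down-regulated (22.2%, beside 12.3% of all tested genes). The median log2 fold change was 0.34, as in the canonical branch, and 6 of the 9 estimates were above 0, beside 51.8% of all tested genes. *Daam1* (ENSMUSG00000034574, chromosome 12 of GRCm38, 71831078 to 71992333, forward strand), a formin that links Dishevelled to actin assembly, had 73.1, 65.3, 76.4 and 78.0 CPM in *Bbs8*+/+ and 102, 87.1, 98.4 and 100.3 CPM in *Bbs8*-/- libraries. The genotypes were apart. The mean rose from 73.2 ± 5.68 to 97.0 ± 6.80 CPM (SD, n = 4) (log2 fold change 0.41, SE 0.133, adjusted p = 0.0378, edgeR). The call was lost with 6 of the 8 libraries left out in turn. The adjusted p was 0.0791, 0.0753 and 0.0865 without *Bbs8*-/- library 1, 3 or 4 and 0.127, 0.0614 and 0.0564 without *Bbs8*+/+ library 2, 3 or 4, while the log2 fold change stayed between 0.36 and 0.46.

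*Prickle1* (ENSMUSG00000036158, chromosome 15 of GRCm38, 93499114 to 93595891, reverse strand), a cytoplasmic polarity protein that partners *Vangl* proteins, was the only member down-regulated. It had 28.4, 40.3, 35.6 and 34.9 CPM in *Bbs8*+/+ libraries and 26.3, 17.6, 24.4 and 19.9 CPM in *Bbs8*-/- libraries. The sets did not overlap, by a narrow margin between 28.4 and 26.3 CPM. Mean levels were 34.8 ± 4.87 CPM and 22.0 ± 4.01 CPM (SD, n = 4) (log2 fold change −0.66, SE 0.222, adjusted p = 0.0446, edgeR). This call too was lost with 6 of 8 libraries left out, with adjusted p of 0.133, 0.0549 and 0.103 without *Bbs8*-/- library 2, 3 or 4 and 0.151, 0.0886 and 0.0972 without *Bbs8*+/+ library 2, 3 or 4, and with library size alone (−0.57, adjusted p = 0.0900). Photoreceptor genes fell beside it, 18 of 26 listed genes down-regulated and 4 up-regulated, from 6.73% to 6.92% of gene counts in *Bbs8*+/+ to 3.02% to 3.11% in *Bbs8*-/- libraries (two-sided exact permutation test, p = 0.0286), and their part in the level of *Prickle1* was not tested.

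The core protein *Vangl2*, a membrane protein placed opposite Frizzled, had 10.49, 13.1, 5.31 and 10.0 CPM in *Bbs8*+/+ and 17.2, 17.9, 16.4 and 15.0 CPM in *Bbs8*-/- libraries. The sets did not overlap, and the log2 fold change of 0.77 (SE 0.321) did not pass (adjusted p = 0.127, edgeR). Its paralog *Vangl1*, at 34.8 ± 5.61 CPM in *Bbs8*+/+ RPE, had an estimate of −0.10 and a 95% interval from −0.51 to 0.31. *Celsr2*, an atypical cadherin that joins polarity complexes between cells, had 36.2, 35.8, 31.9 and 33.8 CPM against 29.6, 43.4, 52.01 and 49.3 CPM. The *Bbs8*-/- libraries ran from below to above the *Bbs8*+/+ libraries (log2 fold change 0.34, adjusted p = 0.310, edgeR). *Ryk*, a Wnt-binding receptor of the kinase family, was the most abundant polarity gene with *Daam1*, at 73.3 ± 17.4 and 82.3 ± 2.15 CPM (SD, n = 4), and its log2 fold change of 0.17 did not pass. *Prickle2*, *Ptk7* and *Ror1* had means under 4 CPM in both genotypes, and *Ror1* had at most 8 counts in a library.

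The genes of the pathway outside these 52 were read from a list of 89, of which 61 were tested. Among them 3 rose and 4 fell (11.5%, beside 12.3% of all tested genes), and the split became 6 and 1 with library size alone. The up-regulated genes were *Rock2*, a kinase of the actomyosin cytoskeleton, from 120 ± 7.71 to 197 ± 17.1 CPM (SD, n = 4, log2 fold change 0.72, adjusted p = 4.03e-06, edgeR), *Gpc3*, a heparan sulfate proteoglycan that binds Wnt proteins, from 223 ± 22.7 to 317 ± 12.5 CPM (0.51, adjusted p = 1.35e-04), and *Rac1*, a small GTPase of the actin cytoskeleton (0.30, adjusted p = 0.0337). *Rock2* and *Rac1* stand on the polarity side of the list, where 2 of 23 tested genes rose and 0 fell (8.70%, beside 12.3% of all tested genes, and at an unadjusted p under 0.05, 4 and 1, beside 23.4%). The call of *Rac1* was lost without *Bbs8*-/- library 2, 3 or 4 or *Bbs8*+/+ library 2 or 3 (adjusted p 0.0580 to 0.138). On the canonical side 33 were tested and 12.1% were called, beside 12.3% of all tested genes. At an unadjusted p under 0.05, 1 rose and 4 fell there, beside 23.4% of all tested genes. On this side 0 genes rose with a call, and all 4 called genes that fell lay there. They were *Gsk3a*, the other GSK3 kinase (−0.60, adjusted p = 0.0221), *Sostdc1*, a secreted antagonist that binds LRP co-receptors (from 313 ± 19.9 to 229 ± 14.1 CPM, −0.45, adjusted p = 4.98e-04), *Chd8*, a chromatin remodeller that binds β-catenin (−0.39, adjusted p = 0.0248), and *Aes*, a Groucho family co-repressor (−0.31, adjusted p = 0.0296).

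Of these 4, *Sostdc1* was called in every fit with a library left out. The calls of the others were lost without *Bbs8*-/- library 1 or 3 or *Bbs8*+/+ library 2 or 3 for *Gsk3a* (adjusted p 0.0591 to 0.0967), without *Bbs8*-/- library 1 or 2 or *Bbs8*+/+ library 4 for *Chd8* (0.0530 to 0.134), and without *Bbs8*-/- library 1 or 3 or *Bbs8*+/+ library 3 or 4 for *Aes* (0.0685 to 0.110). All 3 were also lost with library size alone (0.0603 for *Gsk3a*, 0.0993 for *Chd8* and 0.144 for *Aes*). *Ctnnb1*, the β-catenin gene, was at 342 ± 18.9 CPM in *Bbs8*+/+ and 391 ± 24.9 CPM in *Bbs8*-/- RPE (SD, n = 4), and its log2 fold change of 0.19 did not pass (adjusted p = 0.158, edgeR).

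A list of 26 genes known as Wnt targets in various tissues had 15 tested genes. Among them 5 rose and 2 fell (46.7%, beside 12.3% of all tested genes), and 6 and 1 with library size alone. The called targets averaged 203 CPM (*Id2*) to 540 CPM (*Sox9*) over both genotypes, while the 12.3% includes genes near the filter of 1 CPM. The list was also chosen with earlier results of these data known. The 2 shares are therefore not comparable as a measure of the pathway. The list holds 6 of the 52 genes, none of them called. The up-regulated targets were *Id2*, an inhibitor of bHLH factors, from 140 ± 10.9 to 266 ± 16.1 CPM (SD, n = 4, log2 fold change 0.93, adjusted p = 4.21e-09, edgeR), the AP-1 gene *Jun*, from 214 ± 19.6 to 336 ± 12.8 CPM (0.65, adjusted p = 1.60e-06), the cyclin gene *Ccnd2* (0.47, adjusted p = 0.00105), *Sox9*, also listed for Müller glia (0.32, adjusted p = 0.00577), and the tight junction gene *Cldn1* (0.29, adjusted p = 0.0487). The down-regulated ones were *Ccnd1*, the D-type cyclin most often cited as a Wnt target, from 282 ± 22.9 to 167 ± 7.45 CPM (SD, n = 4, −0.76, adjusted p = 1.87e-07), and *Bmp4* (−0.29, adjusted p = 0.0219). The cyclin genes thus moved in opposite directions. *Cldn1* was called with 2 of the 8 libraries left out in turn and lost its call without *Bbs8*-/- library 2, 3 or 4 or *Bbs8*+/+ library 1, 2 or 3 (adjusted p 0.0597 to 0.178), and *Bmp4* without *Bbs8*-/- library 1 or 2 or *Bbs8*+/+ library 4 (0.0733 to 0.151). Many of these targets answer to other pathways as well, and several targets were near or under the floor. *Sp5*, *Notum* and *Apcdd1* had 0 counts in every library, and *Lgr5* was at 1.01 ± 0.976 and 3.19 ± 1.38 CPM (SD, n = 4, adjusted p = 0.310).

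Summed over all 52 genes, the counts made up 0.274% to 0.293% of gene counts in *Bbs8*+/+ and 0.320% to 0.347% in *Bbs8*-/- libraries, a description with no test. The marker lists were summed the same way. RPE genes made up 4.16% to 4.27% in *Bbs8*+/+ and 5.24% to 5.61% in *Bbs8*-/- libraries, with 5 of 18 genes up-regulated and 4 down-regulated. *Ttr* alone made up 1.98% to 2.06% and 3.07% to 3.39%, and the other 17 RPE genes together 2.11% to 2.21% and 2.17% to 2.25%, which overlapped. Lens genes fell from 0.379% to 0.397% down to 0.0668% to 0.0735%, with 21 of 21 tested genes down-regulated, and erythrocyte genes from 0.505% to 0.546% down to 0.208% to 0.226%, with 5 of 6 down-regulated. Genes listed for the ocular surface epithelium rose from 0.00437% to 0.00614% up to 0.0129% to 0.0158%. Of these 11 genes 6 were tested, and 4 were up-regulated (*Krt5*, *Krt14*, *Krt15* and *Lad1*). *Perp*, not called, held most of the *Bbs8*+/+ sum (mean 48.7 CPM). *Krt12* and *Dsg1a* had 0 counts in every library, and *Trp63* had 0 in every *Bbs8*-/- library. The differences of the RPE, lens, erythrocyte and ocular surface lists each had p = 0.0286 in the two-sided exact permutation test. For inner retina (exact p = 0.143), microglia (0.343), fibroblasts (0.229), endothelium (0.0571) and melanocytes (0.286), the permutation test did not pass 0.05. Their part in the levels of the Wnt and polarity genes was not tested.

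**Figure D4:**
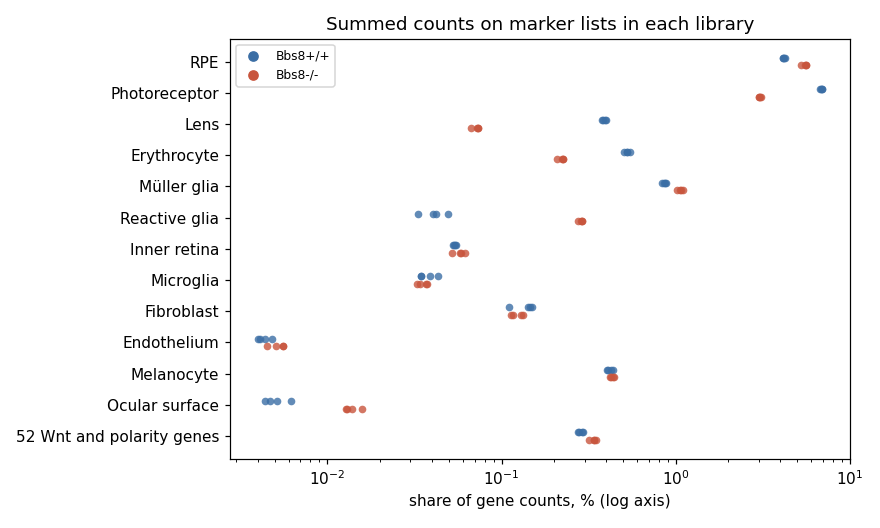
Share of gene counts on each marker list and on the 52 Wnt and polarity genes (x axis, percent on a log axis), with 1 point per library, blue for *Bbs8*+/+ and red for *Bbs8*-/- (4 each). Photoreceptor, lens and erythrocyte shares are lower and glial and ocular surface shares higher in *Bbs8*-/- libraries. The RPE share is higher through *Ttr*, with the other 17 RPE genes at 2.11% to 2.21% and 2.17% to 2.25%, and the 52 genes move from at most 0.293% to at least 0.320%.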

How the data were processed

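Counts of 8 QuantSeq 3′ libraries from RPE at P29 were analysed. The authors removed adapters and poly-A tails, used STAR and the mm10 assembly for alignment, and deposited raw counts of unique reads on Ensembl genes, made by htseq-count, with no scaling or filtering. Reads not mapped uniquely (32.8% to 34.5% of reads) and reads off annotated genes (17.0% to 20.6%) are listed apart and were left out. Symbols and coordinates came from GENCODE M21 (GRCm38), which named 31011 of 31053 identifiers.

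Genes that reached 1 CPM in 4 or more of the 8 libraries were fitted in R 4.3.3 with edgeR 4.0.16 (TMM, quasi-likelihood F test, two-sided, adjusted p under 0.05). Standard errors were derived from the F statistic, and 95% intervals from these by a normal approximation. This makes the intervals somewhat narrower than the F test implies. For *Lgr4* the interval of 0.01 to 0.90 left out 0 although the unadjusted p of that test was 0.0511. The common biological coefficient of variation was 0.213. Libraries were grouped by their labels. Members, roles and lists were chosen with earlier results of these data known. Genes passing the threshold, genes with an unadjusted p under 0.05 and the most abundant remaining gene of each role are named; up to 5 genes in each direction from the other lists are named. *Wnt5b*, *Porcn*, *Sfrp2* and further genes were named after their values were seen. The fit was tested on simulated data. Alternatives were library size scaling, TMM without photoreceptor, lens and erythrocyte genes, DESeq2 1.42.0, the likelihood ratio test, 3 other filters, an adjusted p of 0.01, replicate numbers as a block, and each library left out. Counts per library limit low genes as given with each floor.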

Additional observations from a re-analysis of the deposited data

Results flagged for a closer look

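In 5 of 88 sets of 4 libraries (44 tested genes in each genotype), 1 library stood apart by Dixon's criterion at the 95% level, which chance gives in about 1 of 20 sets. *Wnt5a* was at 14.8 CPM in *Bbs8*-/- library 3, with the others at 3.70 to 5.37 CPM. *Znrf3* was at 13.2 CPM in the same library, with the others at 8.24 to 9.03 CPM. *Dvl2* was at 32.8 CPM in *Bbs8*-/- library 1, with the others at 19.0 to 21.2 CPM, and *Bcl9* at 14.8 CPM in that library, with the others at 21.1 to 22.4 CPM. *Csnk1a1* was at 258 CPM in *Bbs8*+/+ library 4, with the others at 289.8 to 292 CPM. None of these genes passed the test between genotypes.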

How the results depend on the processing

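*Dkk3* and *Sfrp1* kept their direction and their call in every alternative run, while *Daam1* and *Prickle1* kept their direction and lost the call in several. With library size alone in place of TMM, which shifted log2 fold changes by a median of 0.0886, 7 members rose and 0 fell. By branch, 1 canonical and 5 shared members rose and 0 polarity members fell. Of the other pathway genes 6 rose and 1 fell, 1 target fell, and the estimates of *Dvl3* and *Gsk3b* turned to 0.0470 and 0.0265. TMM without photoreceptor, lens and erythrocyte genes gave 2 members that fell, 1 of them canonical. With no filter on low counts 1 canonical member fell, and 0 polarity members rose and 0 fell. With filterByExpr 1 canonical member rose. A minimum of 1 CPM in all 8 libraries gave 2 members that fell, with 1 canonical member up and 1 down. At an adjusted p of 0.01, 394 genes rose and 571 fell, 0 members fell, 0 polarity members rose and 0 fell, 1 other pathway gene fell and 1 target fell. DESeq2 and the likelihood ratio test moved none of these counts by over 1.5 times.

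The replicate numbers did not pair the libraries: same-numbered libraries had correlations of their deviations between −0.03 and 0.01, and 2 of 8 libraries correlated best with their own number. With the replicate block in the model, 0 members fell and, among polarity members, 0 rose and 0 fell. The adjusted p was 0.0617 for *Prickle1*, 0.0532 for *Daam1* and 0.0439 for *Fzd3*.

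With each library left out in turn, 0 to 2 members fell, 0 to 1 canonical members rose and 0 to 1 fell, 0 to 1 polarity members rose and 0 to 1 fell, 1 to 4 other pathway genes fell and 1 to 2 targets fell. The filter of 4 libraries was kept for the remaining 7. The log2 fold change of *Dvl3* ranged from −0.36 to 0.22 and that of *Lrp6* from −0.0101 to 0.11. The cause of these changes was not tested. As a share of the counts left after the photoreceptor, lens and erythrocyte lists, the difference between *Bbs8*-/- and *Bbs8*+/+ was 1.13 percentage points for RPE genes in place of 1.29 (0.0491 of gene counts when *Ttr* was left out, an alternative chosen after seeing the data), 0.168 for Müller glia in place of 0.203 and −0.00856 for melanocytes in place of 0.0119. The motif CTTTGA in place of CTTTGAT was found in promoters of 7 genes in place of 2. For genes under 10 CPM the counts limit what could be called.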
